A study of Mus musculus with 2 samples.

Results

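The tumour suppressor p53 and 9 genes of its circuit were examined: Trp53, which encodes p53, its inhibitors Mdm2 and Mdm4, and the target genes Cdkn1a, Ccng1, Bax, Bbc3, Pmaip1, Fas and Perp. The 10 genes were chosen by name, with earlier results of these data known, and all 10 were found among the 21911 protein-coding genes of the mouse annotation. The data are peaks of trimethylated lysine 36 of histone H3 (H3K36me3) from chromatin immunoprecipitation and sequencing in E14TG2a.4, a male embryonic stem cell line of mouse strain 129/Ola. The labels give the age as 3.5 days and name no treatment or genetic change. They describe 1 group of 2 biological replicates from separate biosamples of the same donor line, so no conditions were compared and no test between groups exists. The files give called peaks and no read counts, so the depth of either library is unknown. Each replicate was measured on its own peak set, on the genome build mm10 with GENCODE M21 gene spans. The measure is the covered share, the percent of the bases of a gene body that lie in peaks, and a gene is called marked when at least 10% is covered in each replicate.

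H3K36me3 is written by the methyltransferase SETD2, which travels with elongating RNA polymerase II, and the mark therefore lies over the bodies of transcribed genes rather than over their starts. Its coverage is not a measure of RNA level. p53 is a transcription factor that responds to DNA damage and other stress, binds pairs of a decamer in its target genes, and is held in check by Mdm2 and Mdm4. Its targets arrest the cell cycle, trigger cell death and, through Mdm2 and Ccng1, feed back on p53 itself.

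The cells carried the mark over 8 of 8 embryonic stem cell genes, with Pou5f1 covered to 68.8% in replicate 1 and 64.8% in replicate 2. None of 8 fibroblast genes, which would mark feeder cells, and none of 5 endoderm genes had a covered base in either replicate. Of 5 neural genes 2 were marked, Tubb3 at 34.8% ± 0.507 and Pax6 at 19.4% ± 3.62 (mean ± SD, n = 2, as throughout). Of all coding genes 37.2% were marked and 50.1% had no covered base in either replicate. Replicate 1 had 107779 peaks over 139 Mb and replicate 2 had 98185 peaks over 127.0 Mb. The share of the genome called thus differed between the libraries. Of the 10 genes 7 had the larger share in replicate 1 and 1 in replicate 2. The median share of marked coding genes was also larger in replicate 1, at 57.1% against 52.9%. The part of the libraries' depth in these differences was not tested. A gene marked in some cells and a gene marked weakly in all of them cannot be told apart in such bulk data.

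Of the 10 genes 7 were marked, against 37.2% of all coding genes; since the choice of genes was not independent of these data, the count is a description. The marked genes were Trp53, both inhibitors, both arrest and feedback genes (Cdkn1a and Ccng1) and 2 of the 5 death genes, Bax and Bbc3. Pmaip1 lay on either side of the threshold in the 2 replicates, and Fas and Perp had no covered base in either, as was true of 50.1% of coding genes. In replicate 1 taken alone 8 of the 10 passed 10%, against 38.9% of coding genes, and in replicate 2 alone 7 did, against 38%. At a threshold of 25% the same 7 were marked, against 29.9%. The median covered share over all 10 genes was 48.7% in replicate 1 and 43.3% in replicate 2. Over all coding genes it was 0% in both. Among marked coding genes the median was 57.1% and 52.9%.

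**Figure D1:**
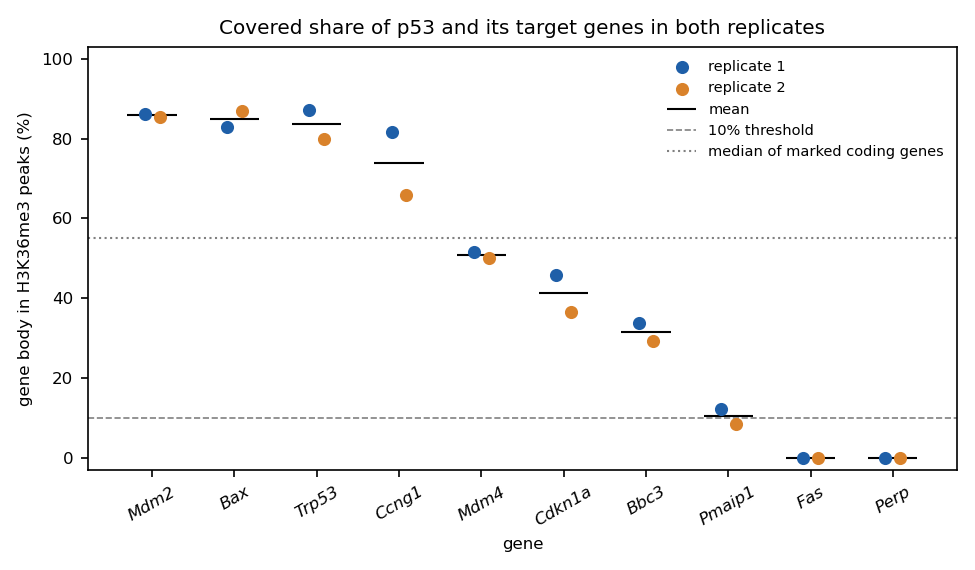
Percent of each gene body in H3K36me3 peaks for the 10 genes, ordered by their mean. Blue points are replicate 1, orange points replicate 2 and black bars their mean; the dashed line is the threshold of 10% and the dotted line the median of all marked coding genes, 55.0% as the mean of both replicates. Mdm2, Bax, Trp53 and Ccng1 lie above the dotted line in both replicates, and Fas and Perp lie at 0.

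Mdm2, Bax and Trp53 stood together at the top of the order, at 85.9% ± 0.449, 85.0% ± 2.81 and 83.6% ± 5.11. The replicate values of Trp53 spanned those of Mdm2 and of Bax, so these 3 were not separated beyond their spread. Ccng1 followed at 73.9% ± 11.2, and its higher replicate, at 81.7%, exceeded the lower replicate of Trp53, at 80.0%. Below them stood Mdm4, at 50.8% ± 1.06, Cdkn1a, at 41.2% ± 6.53, Bbc3, at 31.5% ± 3.09, and Pmaip1, at 10.3% ± 2.68. Over the whole gene spans they formed a descending order in which the replicates of neighbours did not overlap. The lowest marked gene, Bbc3, had 29.3% in its lower replicate, well clear of the threshold, and the nearest gene below it, Pmaip1, had 8.43%. The order of Cdkn1a and Bbc3 depended on the span used. On the longest coding transcript of GENCODE's basic set, Cdkn1a had 39.5% in replicate 1 and 29.2% in replicate 2. Bbc3 had 38.4% and 33.4% on that measure, so their replicates overlapped.

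Sequences matching a strict form of the p53 element were looked for in each gene body and the 5 kb upstream, and placed relative to the mark. A match was 2 adjacent p53 decamers, 20 bases in all, with the core of each intact (C, then 2 bases of A or T, then G) and at most 1 mismatch to the purines before or the pyrimidines after it. The pattern reads the same on either strand. Matches were found in 4 of the 10 genes, at 5 places, all with 1 mismatch. They are shown on the strand of the gene, 5′ to 3′, from RefSeq's GRCm38.p6 genome, the assembly mm10 names, with the 20-base match in capitals and 20 bases on either side.
Cdkn1a, chr17:29090908-29090967 (plus strand): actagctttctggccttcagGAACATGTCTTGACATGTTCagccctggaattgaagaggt
Ccng1, chr11:40754916-40754975 (minus strand): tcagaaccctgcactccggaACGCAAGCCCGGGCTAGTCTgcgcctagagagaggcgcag
Mdm2, chr10:117699901-117699960 (minus strand): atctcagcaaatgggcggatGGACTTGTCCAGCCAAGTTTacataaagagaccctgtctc
Mdm4, chr1:133020285-133020344 (minus strand): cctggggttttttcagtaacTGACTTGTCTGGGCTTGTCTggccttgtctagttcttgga
The match of Cdkn1a began at position −48 from the annotated gene start. The coding transcripts of Cdkn1a start 0.003, 2.79, 2.81 and 6.92 kb past that start. The match of Ccng1 lay in an intron, 0.356 kb from the gene start. Those of Mdm2 and Mdm4 lay in introns 10.8 and 10.2 kb from the start. The other match of Mdm4 overlapped the one shown by 10 bases and shared a decamer with it. A match stood in the 5 kb upstream of 0.717% of all coding genes, and in the body or that flank of 6.42%. Coding gene bodies held 1.42 places per Mb. A match of letters is not evidence of binding. Decamers with bases between them, or with more mismatches, were not looked for. The lack of a match therefore does not show that an element is absent.

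The match in Mdm2, 10.8 kb from the gene start and not tested for binding, lay wholly in peaks in both replicates. The other 4 places had no covered base in either. The first peak of Ccng1 began 0.609 kb past its match in replicate 1 and 0.931 kb past it in replicate 2, and that of Cdkn1a 4.76 and 5.33 kb past it. In Mdm4 the nearest peak edges were 1.26 and 1.14 kb from the match shown.

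Trp53 (ENSMUSG00000059552.13, chromosome 11, 69580359 to 69591873, plus strand, 7 exon blocks after transcripts were merged) had 87.2% of its body in peaks of replicate 1 and 80.0% in those of replicate 2. Averaged over all bases of the gene, the authors' fold enrichment per peak was 11.5 in replicate 1, above 99.5% of coding genes, and 10.7 in replicate 2, above 96.1%. In replicate 1 a single peak of 11.6 kb ran from 2.06 kb past the gene start to 2.13 kb past the gene end. In replicate 2 that stretch held 2 peaks with a gap from 5.257 to 5.442 kb, and the last of them ended 0.890 kb past the gene end. The first exon block was uncovered in both replicates, and the other blocks were wholly covered. At the 5′ end replicate 1 had another small peak from 0.348 to 0.932 kb, of fold 3.46, where replicate 2 had none.

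Upstream of Trp53, and 0.103 kb from its start on the opposite strand, begins Wrap53, which encodes a protein of telomerase assembly. Its covered share was 79.4% in replicate 1 and 78.7% in replicate 2. The starts of both genes lay in an uncovered gap that ended 2.12 kb into Trp53 in replicate 2. Coverage of the 1 kb centred on the Trp53 start was 15.2% in replicate 1 and 0% in replicate 2. The transcripts of Trp53 that the annotation calls basic and coding start within 0.046 kb of one another, so the choice of transcript moved its share by less than the spread between replicates.

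Mdm2 (ENSMUSG00000020184.15, chromosome 10, 117688875 to 117710758, minus strand) encodes the ubiquitin ligase that marks p53 for degradation and is itself a p53 target. With 8 peaks each, replicate 1 covered 86.2% of the gene and replicate 2 covered 85.5%. The replicates shared 94.8% of the bases covered in either, the highest value among the 10 genes. The first peak began 1.54 kb from the gene start in both, past the first 2 exon blocks, which lay between 0 and 1.11 kb and had no covered base. The last peak inside the gene ended at 21.846 and 21.862 kb of 21.884 kb. Past the gene end, replicate 1 had no covered base in the next 5 kb and replicate 2 had 6.6% of it covered. Cpm, a carboxypeptidase gene on the opposite strand 1.52 kb away, had no covered base.

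Mdm4 (ENSMUSG00000054387.13, chromosome 1, 132959484 to 133030561, minus strand), whose product binds p53 and blocks its transactivation, had covered shares of 51.6% and 50.1%. The mark lay in the middle of its 71.1 kb span. In both replicates the first peak began 8.2 kb from the gene start, parts 4 to 6 of 10 equal parts of the gene were covered to at least 93.6%, and the last peak ended at 51.4 kb in replicate 1 and 50.8 kb in replicate 2. The final 2 parts had no covered base. The same held in both replicates for 4.04% of the 7789 marked coding genes of at least 3 kb.

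The annotated transcripts of Mdm4 differ in where they end. Of the coding transcripts in GENCODE's basic set, 3 end between 39.2 and 44.3 kb and 1 runs on to 71.1 kb. The one that ends at 44.3 kb was covered to 79.8% ± 0.0649, and the longest to 54.9% ± 1.15. The 26.7 kb between the ends of those 2 transcripts were covered to 20.3% in replicate 1 and 16.1% in replicate 2, with no covered base past 51.4 kb. The 3 exon blocks beyond, at 57.8, 59.5 and 67.4 kb, had no covered base. At the other end, the 5.145 kb from the gene start to the first start of a basic transcript were uncovered in both replicates. Of the 32-base words in the uncovered bases of Mdm4, 87.4% were found at a single place in the genome, and 88.4% of those in the whole gene.

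**Figure D2:**
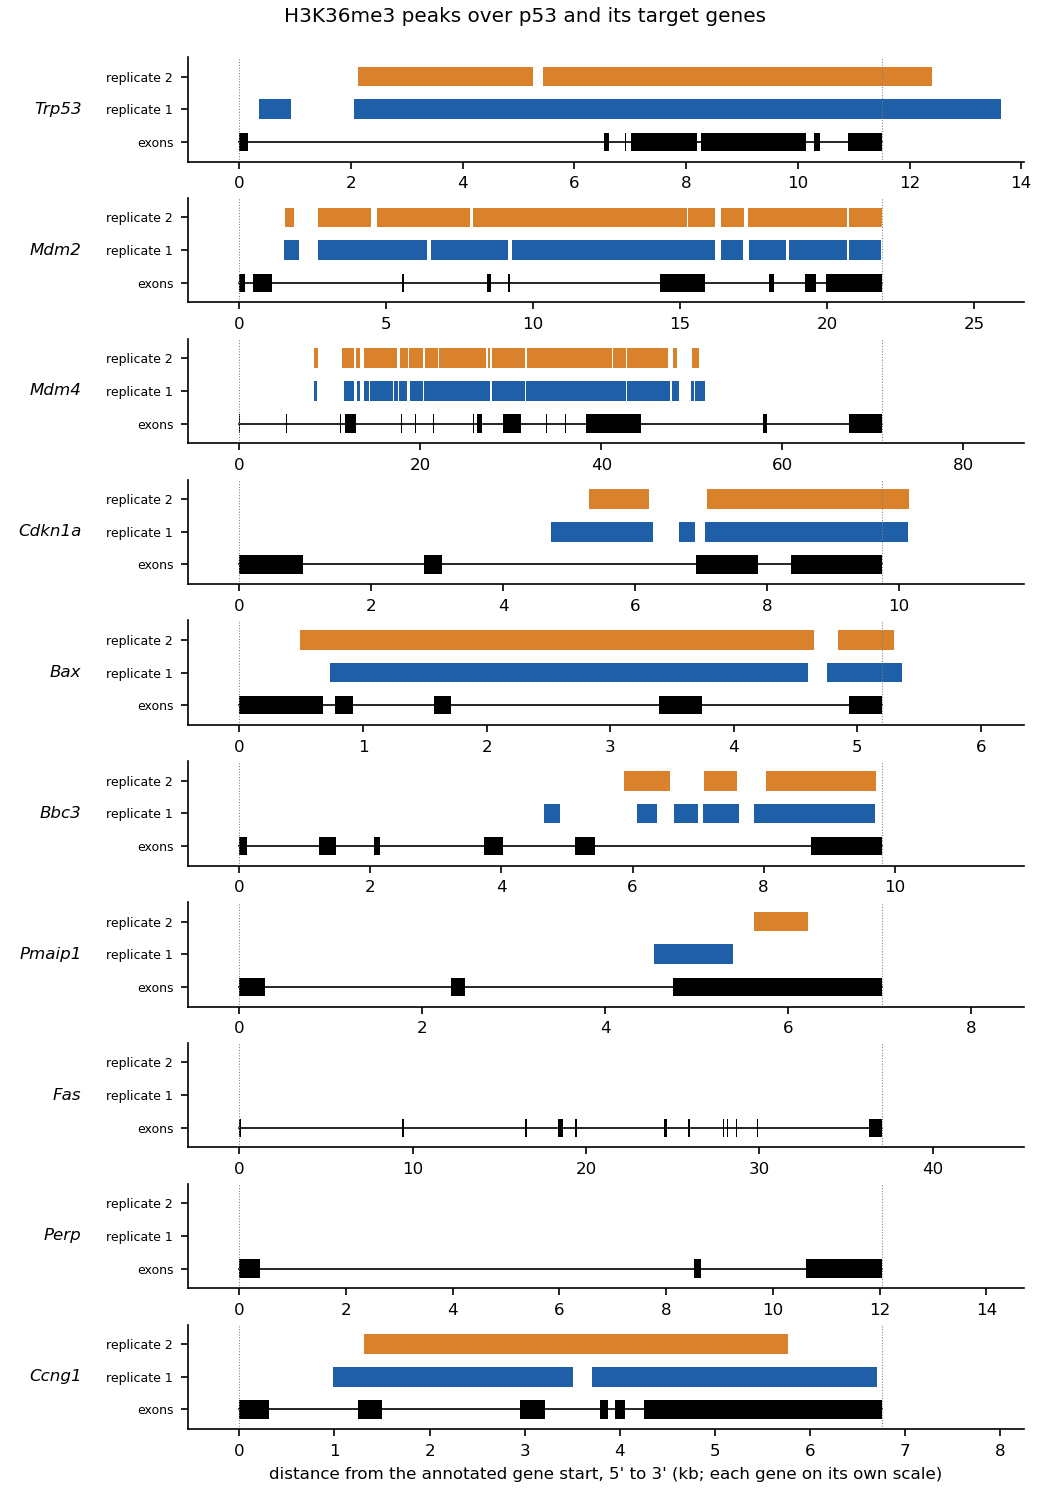
Peaks along each of the 10 genes, drawn 5′ to 3′ as distance from the annotated gene start in kb, each gene on its own scale. Black boxes are exons merged over transcripts, blue and orange boxes the peaks of replicates 1 and 2 that overlap the gene; the dotted lines are the gene start and the gene end. Peaks of Mdm4 end at 51.4 and 50.8 kb of 71.1 kb, and those of Pmaip1 do not meet.

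Cdkn1a (ENSMUSG00000023067.14, chromosome 17, 29090976 to 29100727, plus strand) encodes p21, the inhibitor of cyclin-dependent kinases through which p53 arrests the cell cycle. Replicate 1 covered 45.8% of it and replicate 2 covered 36.6%. Cut into 3 equal parts, the gene had no covered base in its 5′ part in either replicate, while its 3′ part was covered to 89.9% and 81.9%. The first peak began 4.73 kb from the gene start in replicate 1 and 5.30 kb in replicate 2, and the last ran 0.387 and 0.405 kb past the gene end. That last peak, of 3.08 and 3.07 kb, held the final exon block whole, with folds of 8.42 and 14.7. Cdkn1a also has transcripts that start 2.79 and 2.81 kb into the annotated span; the span of the latter was covered to 57.9% ± 9.16, against 34.3% ± 7.30 for the transcript that starts at 0.003 kb.

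Ccng1 (ENSMUSG00000020326.7, chromosome 11, 40748552 to 40755311, minus strand) encodes cyclin G1, a p53 target that recruits protein phosphatase 2A and acts on Mdm2. Peaks covered 81.7% of it in replicate 1 but 66.0% in replicate 2. The gap of 15.8 percentage points was the widest among the 10 genes and exceeded the 14.7 points within which 95% of marked coding genes fell. It lay at both ends: the mark began at 0.985 kb in replicate 1 and 1.307 kb in replicate 2, and ended at 6.70 and 5.77 kb of 6.76 kb. The last of 10 equal parts was covered to 91.7% in replicate 1 and had no covered base in replicate 2. The sets that combine both replicates covered Ccng1 to 88.7% (pooled) and 88.7% (found in both replicates, same run), above either replicate.

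Bax (ENSMUSG00000003873.11, chromosome 7, 45461697 to 45466898, minus strand), which encodes a pore-forming effector of mitochondrial cell death, had a covered share of 83.0% in replicate 1 and 87.0% in replicate 2. It was the only one of the 10 genes with the larger share in replicate 2. A peak of 3.87 kb in replicate 1 and 4.16 kb in replicate 2, with folds of 10.9 and 14.7, held most of the gene. Bax is overlapped over 0.915 kb at its 5′ end by Gm45808, a coding record on the same strand, whose coverage there cannot be assigned to either gene. Over the bases that lie in no other annotated gene Bax was covered to 96.0%. Ftl1, the ferritin light chain gene 1.81 kb downstream, was covered to 66.8% and 74.0%. With gaps of up to 3 kb joined, both formed 1 domain with Gys1 that was 24.6 kb long in replicate 1 and 25.6 kb in replicate 2.

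Bbc3 (ENSMUSG00000002083.13, chromosome 7, 16308393 to 16318205, plus strand) encodes PUMA, a BH3-only protein that frees effectors such as Bax. Replicate 1 covered 33.6% of the gene and replicate 2 covered 29.3%. As in Cdkn1a, the 5′ part of 3 had no covered base, and the 3′ part was covered to 84.5% and 67.5%. The peaks were small, at most 1.85 kb wide in replicate 1 and 1.68 kb in replicate 2, with folds of at most 6.01 and 6.60. The last exon block was covered to 89.2% and 91.6%. The mean fold over the gene, 1.36 and 1.87, was the lowest among the marked genes of the 10.

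Pmaip1 (ENSMUSG00000024521.8, chromosome 18, 66458533 to 66465565, plus strand) encodes NOXA, another BH3-only protein. Each replicate had 1 peak in the gene, of 0.860 kb in replicate 1 and 0.593 kb in replicate 2. The first ran from 4.54 to 5.40 kb and the other from 5.63 to 6.22 kb, so the replicates shared no base. Covered shares were 12.2% in replicate 1 and 8.43% in replicate 2, on either side of the threshold, and the peaks had folds of 5.28 and 3.14. In the sets from other calls the share was larger: 18.4% and 17.5% in the unthresholded sets of the replicates, and 26.1% in the pooled set. At −log10 q of at least 5 the peak of replicate 2 was lost. The coding neighbours of Pmaip1, of which Ccbe1 is the nearer at 156 kb and Mc4r the farther, had no covered base.

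Fas (ENSMUSG00000024778.13, chromosome 19, 34290666 to 34327772, plus strand), a death receptor of the cell surface, and Perp (ENSMUSG00000019851.8, chromosome 10, 18845020 to 18857073, plus strand), a membrane protein of desmosomes that p53 and its relative p63 induce, had no covered base in either replicate. No peak lay within 5 kb of either gene. Single places in the genome held 88.8% of the 32-base words of Fas and 99.2% of those of Perp. Fas had no covered base in any of the 7 mm10 peak sets used. Perp was covered to 4.76% in the unthresholded set of replicate 1, to 0% in that of replicate 2, and to 4.23% in the set found in both replicates by the other run. The nearest coding genes, 35.1 to 146 kb away, were unmarked. Acta2 and Ch25h beside Fas had no covered base, nor had Gm4922 beside Perp, and Tnfaip3 had 4.04% in replicate 1 and 0% in replicate 2. Of all coding genes 37.2% were marked and 50.1% had no covered base, so unmarked neighbours are common.

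Along the gene, the average over the 7 marked genes rose within the first 3 of 10 parts. In 10 equal parts of the gene body, averaged over the 7, coverage went from 6.66% ± 5.24 in part 1 to 34.5% ± 0.935 in part 2 and 69.0% ± 0.313 in part 3. Over the 7789 marked coding genes of at least 3 kb, parts 1 to 3 stood at 12.5% ± 1.58, 33.9% ± 2.90 and 45.7% ± 2.71. The average over the 7 was highest in part 7, at 83.6% ± 1.95, and was 72.6% ± 10.5 in the last. With the gene in 3 equal parts, coverage of the 3′ part was above that of the 5′ part by 35.4 ± 5.29 points, and by 36.1 ± 1.18 points over the marked coding genes. The 3′ part was the higher in 6 of the 7 in each replicate, against 85.0% of those genes in both. Mdm4 had the opposite sign, at −36.7 points in replicate 1 and −42.6 in replicate 2. Without it the other marked genes averaged 47.9 points. No statistical test was made over so few chosen genes, which are not replicates.

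**Figure D3:**
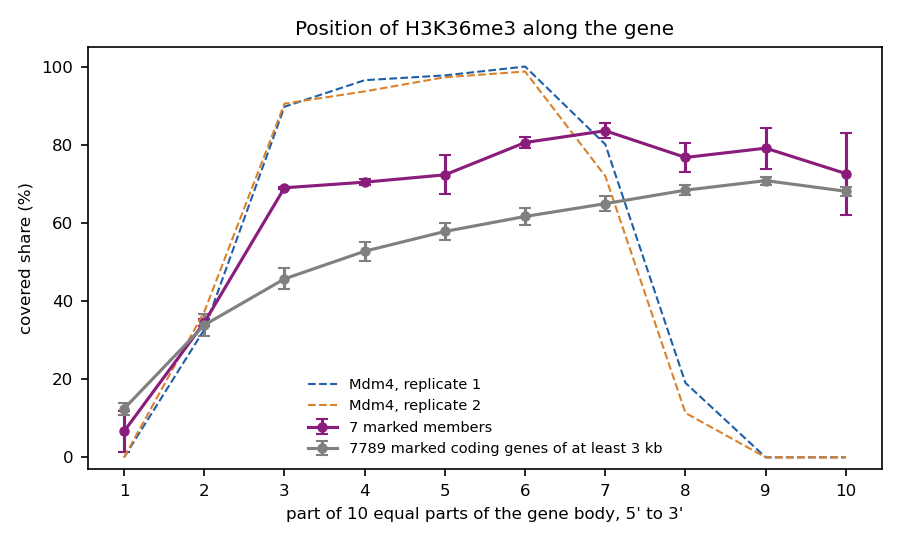
Covered share in 10 equal parts of the gene body, 5′ to 3′, for the 7 marked genes of the p53 circuit (purple) and for 7789 marked coding genes of at least 3 kb (grey). Points are means over genes and then replicates, bars the SD of the 2 replicates; dashed lines are Mdm4 in each replicate, which falls to 0% in the last 2 parts.

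In 6 of the 7 marked genes the first exon block had no covered base in either replicate, as in 92.6% of marked coding genes with 2 or more blocks. The exception was Bax, with 27.8% of the block covered in replicate 2 alone. The last block was covered to at least 50% in both replicates in 6 of the 7, against 70.2%, and the exception was Mdm4. Pooled over the 7 genes, peaks held 71.4% ± 1.94 of exonic bases and 55.6% ± 2.29 of intronic ones. Their ratio was 1.28 ± 0.0180, against 1.55 ± 0.0872 over the 8010 marked genes with 2 or more exon blocks. Single genes went both ways. The ratio was 2.17 ± 0.705 in Cdkn1a and 1.71 ± 0.296 in Bbc3, and it was 0.918 ± 0.0104 in Mdm2 and 0.665 ± 0.0872 in Bax. Without Mdm4 the pooled ratio was 1.11.

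The wider pathway was described with lists that were chosen with earlier results of these data known. Among 28 regulators of p53, Mdm2 and Mdm4 included, 26 were marked, and 24 of the 26 besides those inhibitors, against the background of 37.2%. The median share was 74.4% in replicate 1 and 68.4% in replicate 2. The 3 with the highest share in their lower replicate were Usp28, a deubiquitinase that binds 53BP1, at 89.8% ± 1.76, Aurka, a mitotic kinase, at 89.6% ± 0.123, and Kat5, the acetyltransferase TIP60, at 86.8% ± 0.607. Cop1, a ubiquitin ligase, was marked at 17.9% ± 7.74. The unmarked regulators were Hipk2, a kinase of p53, at 5.65% ± 1.08, and Cdkn2a, whose ARF product inhibits Mdm2 and which had no covered base. Hipk2 spans 182 kb and held peaks in both replicates. The threshold is a share of gene length, so an unmarked long gene is not one without the mark. Of the p53 relatives, Trp63 had no covered base and Trp73 was covered to 3.37% and 5.11%.

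Of 9 arrest targets, 8 were marked, and 6 of the 7 besides Cdkn1a and Ccng1, against 37.2% of all coding genes. Among them were Gtse1, a microtubule protein that also restrains p53, at 89.7% ± 2.42, and Plk3, a kinase, at 73.1% ± 0.986. Btg2, an antiproliferative gene, was at 79.1% and 66.4%, Zmat3, an RNA-binding protein, at 62.9% ± 12.2 and Gadd45a, a stress sensor, at 45.8% ± 10.6. Only Sfn, which encodes 14-3-3 sigma, was unmarked, with no covered base. Of 17 death targets, 13 were marked, and 11 of the 12 outside the 10 genes described above, against 37.2% of all coding genes. Of the 4 that were not marked, 3 are among those 10 genes: Pmaip1, Fas and Perp. The remaining one, the autophagy gene Dram1, had no covered base. Trp53inp1, a cofactor of p53, reached 85.9% ± 3.01, Pidd1, a death-domain scaffold, 84.1% ± 0.598 and Ei24 76.1% ± 2.37, while Cdip1 stood at 21.6% ± 3.71 and Apaf1, the core of the apoptosome, at 20.1% ± 1.72.

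Of 15 targets in repair and metabolism, 13 were marked, against 37.2% of all coding genes. Sco2, a copper chaperone of cytochrome oxidase, reached 77.7% ± 8.22, Xpc, the damage sensor of excision repair, 75.7% ± 5.11 and Psrc1 74.9% ± 2.30. At the low end Ddb2, another damage sensor, was marked at 15.1% ± 3.74. The unmarked genes were Sesn1, which encodes the stress protein sestrin 1, with 0.858% in replicate 1 and 3.46% in replicate 2, and Rrm2b, the p53-induced subunit of ribonucleotide reductase, with no covered base. The 9 arrest, 17 death and 15 repair and metabolism targets had median shares of 71.5%, 62.6% and 40.6% in replicate 1 and 54.9%, 51.9% and 42.0% in replicate 2.

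**Figure D4:**
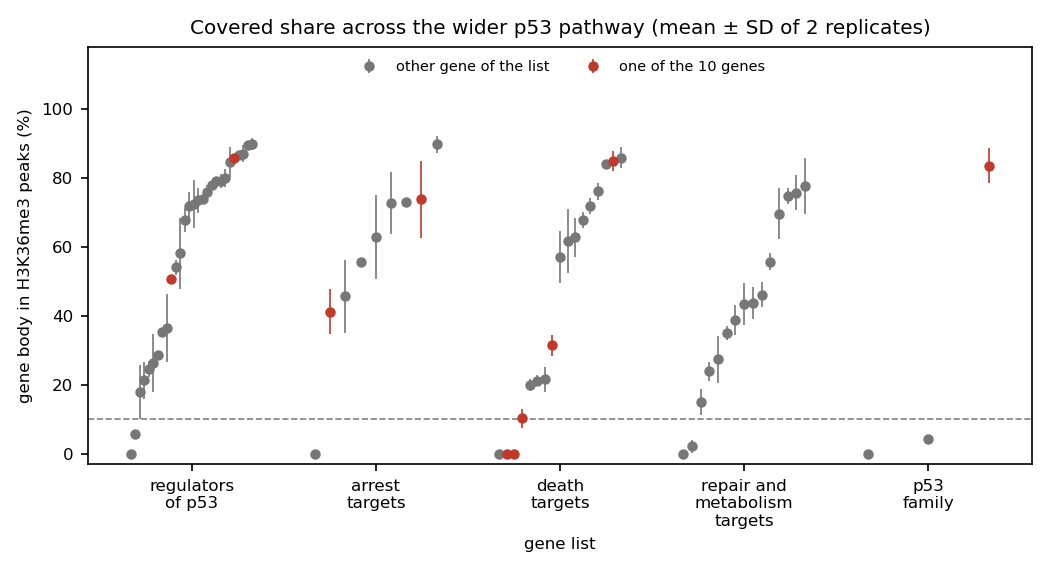
Percent of the gene body in H3K36me3 peaks for genes of the wider p53 pathway, as the mean of 2 replicates with bars of 1 SD; red points are the 10 genes described first and the dashed line is the threshold of 10%. Of the regulators 26 of 28 lie above the threshold in both replicates, and 13 of 17 death targets do, against 37.2% of all coding genes.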

How the data were processed

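H3K36me3 ChIP-seq peaks of 2 biological replicates of E14TG2a.4 cells were analysed. Per the deposited file lists, the main sets are the peaks of each replicate supported by its own pseudoreplicates, and the unthresholded sets come from other alignments. The deposited fold (column 7) is a ratio over background by the authors' peak caller, and p and q are deposited as −log10 values. The sources used here name no aligner, caller, read length or depth. The authors called peaks separately in each library, so a difference in depth can move coverage. A peak set on mm9 and a pooled unthresholded set were not used here.

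Gene spans came from GENCODE M21 (GRCm38, the assembly mm10 names). The longest record of a coding symbol was kept, which left out 27 records. Covered bases were counted with Python 3.11.15, numpy 2.4.6 and pandas 2.3.3, with peaks merged. Positions used 3 or 10 equal parts of bodies of at least 3 kb. Sequences and the element search used RefSeq's GRCm38.p6 genome. Word uniqueness counted 32-base words on both strands of 21 chromosomes, the word length being a choice made here. Routines were tested on simulated data. The members and lists were chosen with earlier results of these data known. All 10 members are named; of each other list the 3 highest and 3 lowest (by the lower replicate), genes whose replicates straddle 10%, and neighbours were eligible, and not all neighbours are given. The symbol Ptprv matched no coding record and was not analysed here. Alternatives were the other peak sets, a minimum −log10 q of 5, leaving out either replicate, joined peaks, other gene spans and other thresholds. No test was made, as there is 1 group.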

Additional observations from a re-analysis of the deposited data

How the results depend on the processing

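The count of 7 marked genes stayed between 5 and 8 under all alternatives tried. It was 8, with Pmaip1 added, in the unthresholded sets, the pooled set, both sets found in both replicates, replicate 1 alone and at a threshold of 5%; it was 7 with replicate 2 alone and 5 at 50%, where Cdkn1a and Bbc3 left. At a minimum −log10 q of 5, at 25%, with joined peaks and with other gene spans it was 7. Leaving out Bax, which overlaps another coding gene, gave 6. The background was 40.6% of coding genes at 5%, 29.9% at 25% and 19.3% at 50%. With replicate 1 alone it was 38.9%, and with replicate 2 alone 38%. For the other alternatives no background share is given, so their counts cannot be set against one. In the pooled set and the sets found in both replicates, 10% had to be met in that set rather than in each replicate. The difference between the 3′ and 5′ parts of 3 equal parts, 35.4 points, ran from 31.7 to 39.2 with 1 replicate left out, and was 40.9 and 40.7 with peaks joined across 1 and 3 kb and 47.9 without Mdm4, an alternative chosen after seeing the data. The ratio of exonic to intronic coverage, 1.28, was 1.24 in the unthresholded sets, 1.23 in the pooled set, 1.24 and 1.20 in the sets found in both replicates by the main and the other run, 1.21 and 1.15 with peaks joined across 1 and 3 kb, and 1.11 without Mdm4; it ran from 1.27 to 1.30 with 1 replicate left out. It stayed above 1 throughout. The cause of these shifts was not tested. No paired analysis was possible because the replicates form 1 group. Unknown depth limits what an uncovered gene shows: a mark too weak to be called cannot be told apart from none.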
